A study of Mus musculus with 15 samples.

Results

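The mitochondrial ribosomal protein genes were examined on 15 two-colour cDNA arrays. Each compared a lymphoid ES (embryonic stem) cell line of mouse after treatment with the untreated line. They were taken as all genes whose current symbol starts with Mrpl (large subunit) or Mrps (small subunit). The arrays carried 64 such genes on 79 probes, and 63 of them, of 9720 genes in all, had values on at least 4 arrays of each dye orientation. Mrps11 did not, with 7 values left. A further 14 of 78 protein-coding mouse genes with such symbols in RefSeq were not analysed here. The symbols alone made a gene a member, and the minimum number of values then removed Mrps11.

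On 8 arrays (1 to 8) the treated RNA was labelled with Cy5 and the untreated RNA with Cy3. On the other 7 arrays (9 to 15), the dye swaps, the treated RNA carried Cy3 and the untreated RNA Cy5. The treatment, its dose and its duration are not named in the labels, nor is what makes the line lymphoid. The protocol in the labels describes organs and pooled control animals, which does not match a cell line, so the channel names were followed. The number of cultures, and any RNA shared by arrays, is not stated, so p-values measure the spread between arrays and may be too small. Only ratios were analysed here, so neither the level of a gene nor the presence of a cell type's markers could be read, only how markers differed between the channels. Fewer cells of a type and less RNA per cell cannot be told apart in such ratios.

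Mitochondria hold their own ribosomes, which translate the few messages of the mitochondrial genome into core subunits of the respiratory chain and ATP synthase. Their RNA is mitochondrial, whereas all their proteins are encoded in the nucleus, made in the cytosol and imported. Many of these proteins descend from those of bacterial ribosomes, and others occur in mitochondria only. In proliferating and differentiating cells, the supply of these subunits is part of how the respiratory chain is built.

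No source used here gives the sign of the deposited log2 ratio. It is likely treated over untreated on all arrays, because 1999 placeholder values, read as an empty channel, were all above 0 on the first 8 arrays (1117) and all below 0 on the swaps (882). That is what an empty Cy3 channel gives once the swaps have been turned. An untreated channel at 0 with unturned swaps would give the same signs, so this basis does not settle it. Therefore 2 quantities are given for each gene. The first is the mean of both orientations, the treatment estimate if the swaps were turned. The second is the orientation coefficient, 0.5 times the difference between the orientations (treated in Cy5 minus treated in Cy3). It is a dye effect if the swaps were turned, and the treatment estimate if they were not.

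Each array gave 19213 to 19973 measured probe values, and the largest correlation of an array with any other lay between 0.034 and 0.32 over all probes. Arrays 7, 8 and 15 correlated least (0.083 at most), and results are also given without them. Of the 1153 values of Mrp probes, 7.55% came from dim spots with very few units of signal, against 10.3% over all probes. Spot intensities were not analysed here, so brighter spots with such a ratio would be counted as dim too.

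In the mean of both orientations, no mitochondrial ribosomal protein gene passed limma's test (0 of 63 at an adjusted p under 0.05, where 0.0412% of all 9720 genes passed). At an unadjusted p under 0.05, 1 of 63 genes passed (1.59%, Mrpl57, above 0), beside 7.02% of all genes in either direction and 3.94% above 0. Estimates were positive for 27 genes (42.9%), beside 52% of all genes. Their median was -0.0091 (log2), beside 0.0054 over all genes. The estimate was within 0.1 of 0 for 45 of the 63. The 95% interval lay within 0.5 of 0 (1.41-fold) for 54 genes, or 85.7%, beside 84.3% of all genes. It lay within 0.25 of 0 for 31 genes, or 49.2%, beside 41.7%. The standard error ranged between 0.045 and 0.37 with a median of 0.084.

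**Figure D1:**
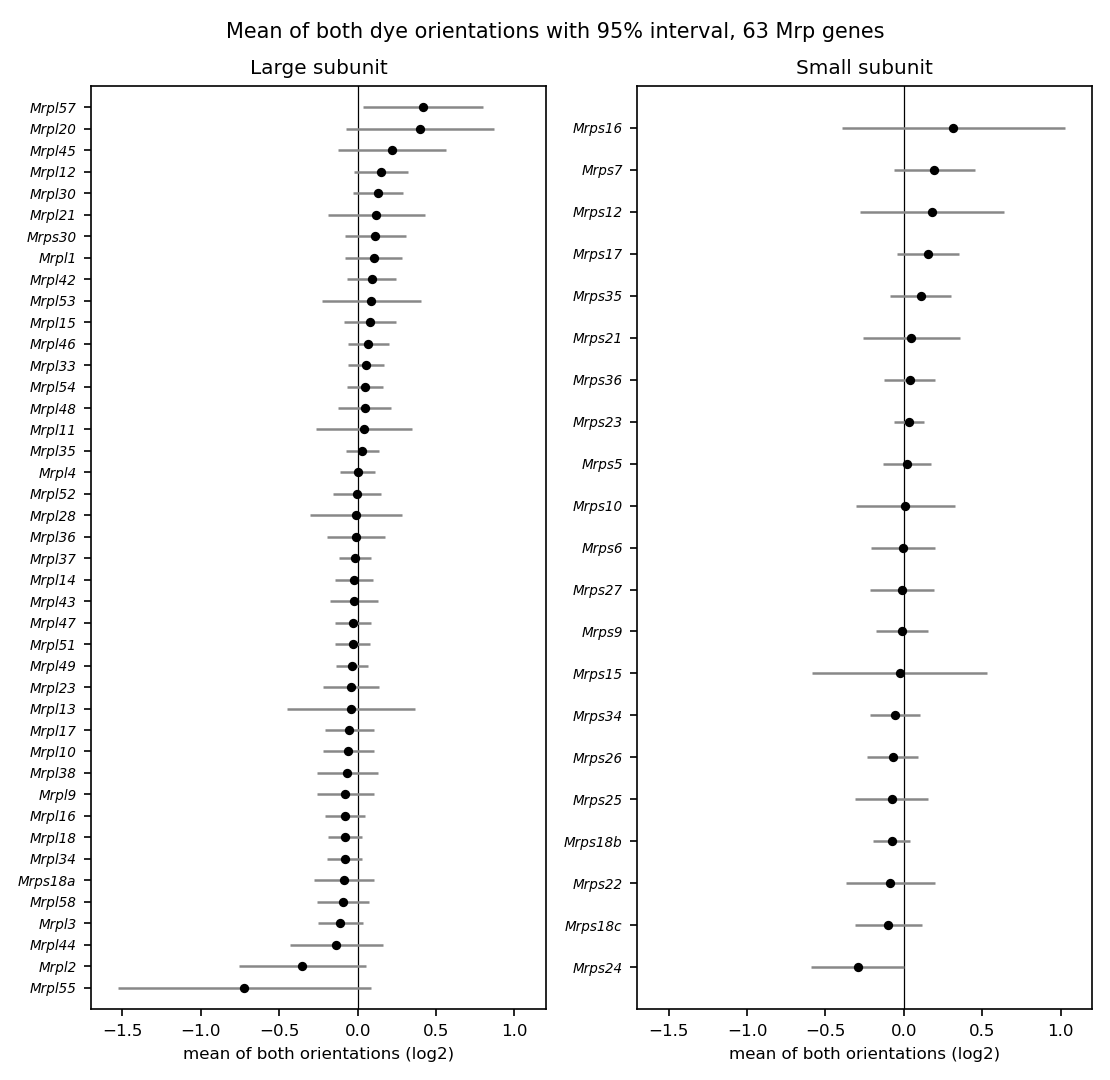
Mean of both dye orientations (points, log2 ratio) with its 95% interval (lines) for each of the 63 genes, large subunit at left and small subunit at right, sorted by estimate. The intervals include 0 for all genes but Mrpl57, and are widest for Mrpl55 and Mrps16.

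By role, the estimates were as follows. Of 23 large subunit proteins with counterparts in bacteria (Mrpl1 to Mrpl36), 9 had a positive and 14 a negative estimate (median -0.0091). Of 17 large subunit proteins with higher numbers, most of them without such a counterpart, 7 had a positive and 10 a negative estimate (median -0.015). Small subunit proteins with bacterial counterparts were above 0 in 7 of 12 genes (median 0.017), and the remaining genes named Mrps, Mrps36 among them, in 3 of 9 (median -0.058). The groups follow the symbols, and whether each gene encodes a subunit of the ribosome was not checked. Mrps18a and Mrps30, named for the small subunit but found in the large one, were at -0.09 ± 0.09 and 0.11 ± 0.09 (SE, n = 15 arrays). None of these groups had a member with an adjusted p under 0.682 in limma, and differences between groups were not tested.

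Mrpl57, a mitochondria-specific protein of the large subunit, had the smallest p of the set. Its log2 ratio was 0.047 at the lowest, 0.38 at the median and 3.19 at the highest of 8 arrays with Cy5-labelled treated RNA, against 0.040, 0.15 and 0.31 on the 7 swaps. It was above 0 on all 15 arrays, as were 4 of 9720 genes (0.0412%), and above the median of all genes on each of them. The mean of both orientations was 0.42 ± 0.18 (SE), and it did not pass limma's test (adjusted p = 0.682). The highest value came from array 7 alone. Without that array the estimate was 0.24 (adjusted p = 0.151), and without arrays 7, 8 and 15 it was 0.27 (adjusted p = 0.115). Mrpl57 has 1 probe, with no dim value.

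Mrpl20, a conserved protein of the large subunit, was next to it in size, at 0.40 ± 0.22 (SE; adjusted p = 0.752 in limma). It ranged between -0.19 and 3.66 with Cy5-labelled treated RNA and between 0.017 and 0.39 on the swaps, with the highest value again on array 7. Without array 7 its estimate was 0.18. Mrpl12, part of the stalk that recruits translation factors, was at 0.15 ± 0.08 (adjusted p = 0.743). Its values ran between -0.057 and 0.59 with Cy5-labelled treated RNA and between -0.36 and 0.78 on the swaps, so both orientations straddled 0. Without array 11 its estimate was 0.095, and with quantile normalization it was 0.22.

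Below 0, Mrps24, a conserved small subunit protein, had a mean of -0.29 ± 0.14 (SE; adjusted p = 0.712 in limma). Its median was 0.23 over 8 arrays with Cy5-labelled treated RNA and -0.37 over the swaps, where all 7 values were below 0. The lowest, -2.07, came from array 15, and without that array the estimate was -0.17. Without arrays 7, 8 and 15 it was -0.067. Mrpl2, which lies near the peptidyl transferase centre, was at -0.35 ± 0.19 (adjusted p = 0.743), with values between -2.12 and 1.22 with Cy5-labelled treated RNA and between -1.23 and 0.27 on the swaps. Without array 1, which held the lowest value, its estimate was -0.23. Mrpl55, a further large subunit protein, had the most negative estimate, -0.72 ± 0.37 (adjusted p = 0.738). It was measured on 12 arrays, 5 of its 12 values were dim, and they spread between -2.92 and 1.88. Its estimate was -0.47 without array 11 and -2.07 with placeholders left in. With array weights the estimate was 0.24 for Mrpl12, 0.24 for Mrpl20, -0.14 for Mrps24 and -0.21 for Mrpl2.

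The 2 orientations differed for this set more than their mean did from 0. The same held over all 9720 genes, where 254 were called for the orientation coefficient and 4 for the mean. With the treated RNA in Cy5, the median over the Mrp genes lay between -0.027 and 0.156 per array and was above the median of all genes on 7 of 8 arrays, array 7 being the exception. On the swaps it lay between -0.147 and 0.030 and was below the median of all genes on 5 of 7 arrays. It equalled that median on array 12 and was above it on array 11. Taken gene by gene, 40 of 63 means (63.5%) were above 0 with Cy5-labelled treated RNA, beside 51.2% of all genes, and 24 (38.1%) on the swaps, beside 52.1%. In all, 26 of 63 (41.3%) had a mean above 0 with Cy5-labelled treated RNA and below 0 on the swaps, beside 29.7% of all genes. The opposite held for 10 of 63 (15.9%), beside 30.7% of all genes.

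**Figure D2:**
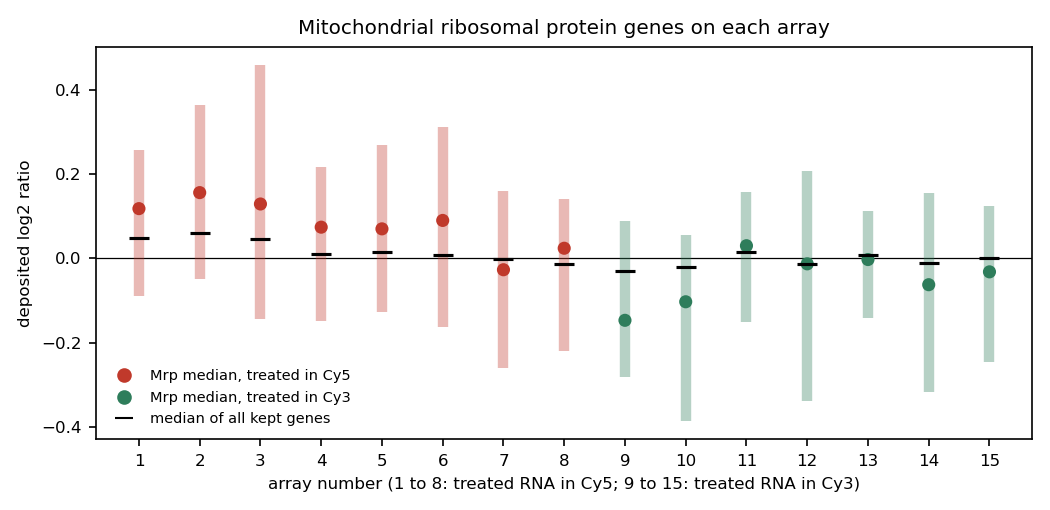
Median (points) and interquartile range (bars) of the deposited log2 ratio over the Mrp genes on each array, red for the treated RNA in Cy5 and green for Cy3. Black dashes are the median of all kept genes. Red points lie above the dashes on 7 of 8 arrays and green points below them on 5 of 7.

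In the orientation coefficient, 4 of 63 Mrp genes passed limma's test (6.35%), where 2.61% of all genes passed. Of these, 3 were above 0, beside 1.92% of all genes, and 1 was below, beside 0.689%. At an unadjusted p under 0.05 there were 17 (27%, beside 19.5% of all genes), 13 above 0 (20.6%, beside 10.4% of all genes) and 4 below (6.35%, beside 9.12%). The coefficient was above 0 for 45 genes, or 71.4%, beside 49.2% of all genes. Its median was 0.052, beside -0.0034 over all genes, and with each array centred on its median it was 0.037, beside -0.018. Over scaled, centred and quantile-normalized arrays the Mrp median stayed above 0, between 0.037 and 0.052. Without arrays 7, 8 and 15 the coefficient passed for 8 of 62 Mrp genes (12.9%, beside 5.98% of all genes), and its median was 0.077. At an unadjusted p under 0.05 it then passed for 21 (33.9%, beside 23.7%). The mean of both orientations still passed for 0 of 62, with 3 at an unadjusted p under 0.05 (4.84%, beside 7.9% of all genes). Either orientation fitted alone called 0 genes. At an unadjusted p under 0.05 the 8 arrays with Cy5-labelled treated RNA gave 13 of 64 Mrp genes (20.3%, beside 13%) and the 7 swaps 8 of 63 (12.7%, beside 14.5%). No set test was made, so these shares describe the set and do not show it to stand apart from other genes.

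**Figure D3:**
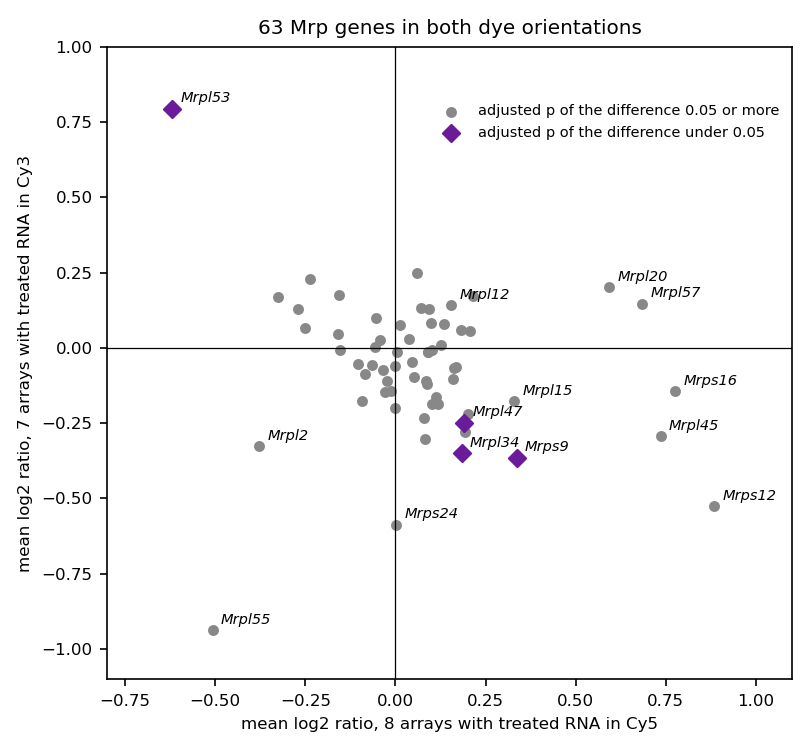
Mean log2 ratio of each of the 63 Mrp genes on 8 arrays with Cy5-labelled treated RNA (horizontal) and on 7 with it in Cy3 (vertical). Purple diamonds mark the 4 genes whose orientations differed at an adjusted p under 0.05. The lower right holds 26 genes and the upper left 10.

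Mrpl34, a small conserved protein of the large subunit, showed the difference with the smallest p. Its log2 ratio was 0.052 at the lowest, 0.16 at the median and 0.33 at the highest with Cy5-labelled treated RNA, against -0.80, -0.32 and -0.064 on the swaps. The orientations did not overlap, which held for 1.44% of all genes. The coefficient was 0.27 ± 0.05 (SE, n = 15 arrays; adjusted p = 0.0172 in limma), and it passed in all 15 fits that left out 1 array. Mrpl34 has 2 probes, at 0.29 ± 0.06 (adjusted p = 0.0255) and 0.25 ± 0.06 (adjusted p = 0.0522), whose values correlated at r = 0.72 over the 15 arrays. In the mean of both orientations the gene was at -0.08 ± 0.05 (adjusted p = 0.769).

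Mrpl53, a mitochondria-specific large subunit protein, differed in the opposite direction. Its values were all below 0 with Cy5-labelled treated RNA (lowest -1.52, median -0.44, highest -0.082) and all above 0 on the swaps (0.14, 0.60 and 2.13), without overlap. The coefficient was -0.71 ± 0.15 (SE; adjusted p = 0.0247 in limma). It missed the threshold without array 12 (adjusted p = 0.0533) and was -0.53 without arrays 7, 8 and 15. Its mean over both orientations was 0.09 ± 0.15, and it has 1 probe.

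Mrps9, a conserved small subunit protein, was at -0.28, 0.29 and 0.85 (lowest, median, highest) with Cy5-labelled treated RNA. On the swaps it was at -0.48, -0.36 and -0.18, all below 0. Array 1 was the only array with Cy5-labelled treated RNA that fell among the swaps. The coefficient was 0.35 ± 0.08 (SE; adjusted p = 0.0295 in limma) and passed in 8 of 15 fits that left out 1 array. Mrpl47, a large subunit protein near the exit of the peptide tunnel, ranged between 0.0040 and 0.365 with Cy5-labelled treated RNA and between -0.63 and 0.036 on the swaps. Its coefficient was 0.22 ± 0.05 (adjusted p = 0.0422), and it passed in 3 of 15 such fits. With arrays centred on their medians its adjusted p was 0.0574, and with quantile normalization 0.0529. Both were close to 0 in the mean of the orientations, at -0.01 ± 0.08 and -0.03 ± 0.05.

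Of the genes named by smallest p for this quantity, 2 more did not pass. Mrps12, part of the decoding centre, had a coefficient of 0.70 ± 0.21 (SE; adjusted p = 0.0883 in limma). It was above 0 on 7 of 8 arrays with Cy5-labelled treated RNA and on 2 of 6 swaps, and 6 of its 14 values were dim. With dim values left out, an alternative chosen after seeing the data, it was 1.15 (adjusted p = 0.0519), and with array weights 0.43 (adjusted p = 0.204). Mrpl15, a conserved large subunit protein, was at 0.25 ± 0.08 (adjusted p = 0.0900). It was above 0 on 7 of 8 arrays with Cy5-labelled treated RNA and on 2 of 7 swaps. Among 15 fits that left out 1 array, it passed in 1, without array 7 (0.28, adjusted p = 0.0498), where 4.46% of all genes passed. Array weights gave 0.26 (adjusted p = 0.0267), where 685 of 9720 genes passed. Without arrays 7, 8 and 15 it was 0.34 (adjusted p = 0.0249), where 5.98% of all genes passed.

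The remaining 11 genes with an unadjusted p under 0.05 had adjusted p between 0.0975 and 0.254 in limma. Mrpl45, which holds the ribosome to the inner membrane, was the largest at 0.51 ± 0.16 (SE), from 12 arrays, and 6 of its 12 values were dim. Mrpl3 was at 0.19 ± 0.07, Mrpl36 at 0.21 ± 0.09, Mrpl49 at 0.15 ± 0.05 and Mrpl35 at 0.13 ± 0.05, all conserved large subunit proteins except Mrpl49. Mrpl33, Mrpl54 and Mrpl37 lay between 0.10 and 0.12. Below 0 were Mrpl9 at -0.25 ± 0.09, Mrps6 at -0.23 ± 0.10 and Mrps26 at -0.20 ± 0.08. By subunit, grouped by symbol as above, the coefficient was above 0 in 31 of 42 large subunit genes (73.8%, median 0.058). For the small subunit this held in 14 of 21 genes (66.7%, median 0.027), a difference that was not tested. Over all 63 genes, 34 coefficients were within 0.1 of 0.

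**Figure D4:**
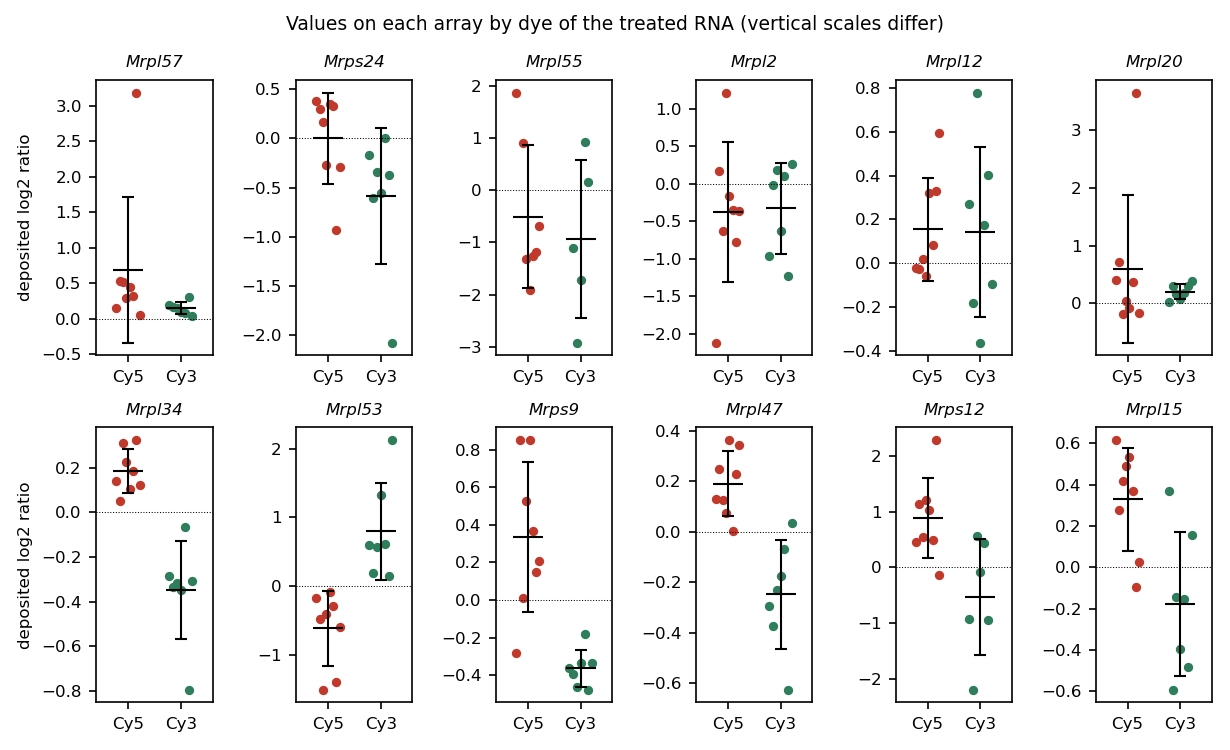
Deposited log2 ratio on every array (points) of the 6 Mrp genes with the smallest p for the mean of both orientations (top) and for the orientation coefficient (bottom), by dye of the treated RNA, Cy5 left and Cy3 right. Black lines are mean ± SD. The orientations are separate for Mrpl34 and Mrpl53, and single values from array 7 reach 3.19 for Mrpl57 and 3.66 for Mrpl20.

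The upstream sequences of the 4 genes that passed are shown because mitochondrial ribosomal protein promoters are known targets of ETS-family factors such as GABP and of NRF1, both activators of nuclear genes for mitochondria. Each is the stretch of 100 bases before the annotated start of the gene, from RefSeq (GRCm38.p6), written in the direction of transcription. Capitals mark the ETS core CCGGAAG or its reverse complement.
Mrpl34, chr8:71464826-71464925, plus strand: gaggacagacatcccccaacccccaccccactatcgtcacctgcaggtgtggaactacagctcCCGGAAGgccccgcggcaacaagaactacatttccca
Mrpl53, chr6:83109008-83109107, plus strand: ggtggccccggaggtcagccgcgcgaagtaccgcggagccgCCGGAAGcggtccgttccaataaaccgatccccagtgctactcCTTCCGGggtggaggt
Mrps9, chr1:42851133-42851232, plus strand: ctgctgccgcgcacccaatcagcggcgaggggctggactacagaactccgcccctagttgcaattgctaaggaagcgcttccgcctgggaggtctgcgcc
Mrpl47, chr3:32736756-32736855, minus strand: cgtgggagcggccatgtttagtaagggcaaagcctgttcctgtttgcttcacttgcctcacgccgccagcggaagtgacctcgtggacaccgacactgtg

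Mrpl34 and Mrpl53, which differed between orientations in opposite directions, both hold the exact core. The stretches shown for Mrps9 and Mrpl47 do not, but they hold it without its first base (CGGAAG in Mrpl47, CTTCCG in Mrps9). The exact search thus does not part genes with an ETS-type site from genes without one. Over the 250 bases upstream, 56 of the 63 genes matched the RefSeq table, with 62 windows. Searched on both strands, the ETS core was in 16 of these windows (25.8%), beside 6.91% of all 32851 windows and 8.98% of those of protein-coding genes. The NRF1 core was in 1 (1.61%, beside 0.782% of all windows and 1.07% of those of protein-coding genes). The E-box CACGTG was in 7 windows, of 5 genes (11.3% of windows, beside 6.02% and 6.63%). The YY1 core AAGATGGC was in 2 windows (3.23%, beside 1.56% and 1.5%). Any match is a description of the letters and not of binding.

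Genes with several probes showed how far a single cDNA spot can be read. Among 14 such Mrp genes, all probes had the same sign in 4 genes for the mean of both orientations and in 7 for the orientation coefficient. The median correlation between probes of a gene over the arrays was -0.066, taking the closest pair of the 1 gene with 3 probes. On the level of probes, 0 of 78 passed limma's test for the mean (0.0503% of all 19863 probes did). For the orientation coefficient 7 passed (8.97%, beside 2.74% of all probes).

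A further 3 genes not called by their average had a probe among these 7. The probes of Mrpl10, which anchors the stalk, were at 0.30 ± 0.06 (SE; adjusted p = 0.0220) and -0.31 ± 0.15 (adjusted p = 0.247). Those of Mrpl48 were at -0.34 ± 0.07 (adjusted p = 0.0194) and 0.27 ± 0.13 (adjusted p = 0.247). Probes of 1 gene thus pointed in opposite directions, and the averages of both genes lay near 0. For Mrps25 the probes were at 0.30 ± 0.08 (adjusted p = 0.0462) and 0.01 ± 0.18. Mrpl34 was the only gene of the 4 called by average with a second probe.

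**Figure D5:**
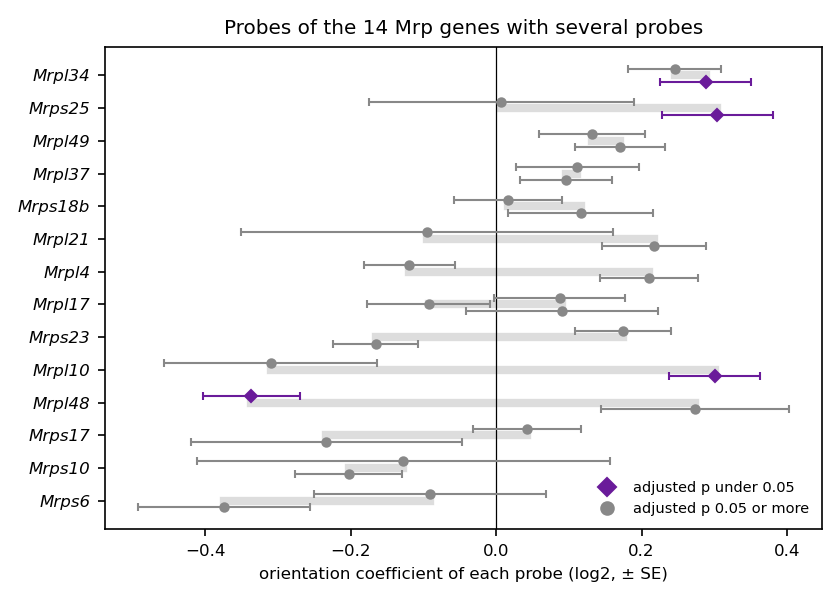
Orientation coefficient (log2, ± SE) of each probe of the 14 Mrp genes with several probes. Purple diamonds passed limma's test over all probes. Both probes of Mrpl34 lie above 0, and those of Mrpl10 and of Mrpl48 lie on opposite sides of 0.

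Correlations among the Mrp genes from array to array were near those with other genes. Over 52 genes with values on all 15 arrays, the median correlation between members was 0.016, beside 0.005 between members and other genes. With each orientation's mean removed it was 0.004, beside 0.008. Single pairs were closer, but each was picked as the closest among all members, for genes chosen by their orientation p. High values are thus partly built in by the choice, and they were not tested. The genes most like Mrpl34 were Mrpl47 (r = 0.85), Mrpl49 (0.75) and Mrpl35 (0.745). Once the orientation means were removed, these were 0.51, 0.28 and 0.40. Nearest to Mrps9 was Mrpl37 (0.80, and 0.64 with orientation removed), and nearest to Mrpl53 was Mrps6 (0.78 and 0.67). The next nearest were Mrpl47 to Mrps9 (0.74 and 0.31) and Mrpl9 to Mrpl53 (0.59 and 0.22). These points share arrays and dyes.

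Other genes of mitochondrial translation are given from lists. Subunits of the mitochondrial ribosome under other names had 4 measured genes, none of which passed in either quantity, and all 4 had an orientation coefficient below 0. Dap3, a GTP-binding small subunit protein, was at -0.19 ± 0.06 (SE; adjusted p = 0.0992 in limma). Ptcd3, an RNA-binding small subunit protein, was at -0.13 ± 0.07 (adjusted p = 0.296), and Chchd1 at -0.08 ± 0.07 (adjusted p = 0.575).

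Of 13 translation factors, 1 passed for the orientation coefficient, beside 2.61% of all genes, and 0 for the mean, beside 0.0412%. This was Tufm, the elongation factor that brings aminoacyl-tRNA to the ribosome, with a coefficient of 0.31 ± 0.05 (SE; adjusted p = 0.00870 in limma) and a mean over both orientations of 0.03 ± 0.05. Mtrf1, a member of the release factor family, was at -0.29 ± 0.08 (adjusted p = 0.0599) and Slirp at -0.15 ± 0.06 (adjusted p = 0.188). In the mean of both orientations Taco1, a translational activator of cytochrome oxidase subunit I, was lowest in p at -0.23 ± 0.08 (adjusted p = 0.525), followed by the elongation factor Gfm1 at -0.48 ± 0.24 (adjusted p = 0.724).

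Of 11 mitochondrial aminoacyl-tRNA synthetases and related enzymes and 17 factors of ribosome assembly and rRNA modification, none passed in either quantity. Medians of the orientation coefficient were -0.098 and -0.067, beside -0.081 for the translation factors and 0.052 for the Mrp genes. Coefficients were below 0 in 7 of 11 and 12 of 17 genes. Among them, Gatc, a subunit of the amidotransferase that makes glutaminyl-tRNA, was at 0.29 ± 0.08 (SE; adjusted p = 0.0594 in limma) and Nsun4, an rRNA methyltransferase, at 0.19 ± 0.06 (adjusted p = 0.107). The methionyl-tRNA synthetase Mars2 had the largest mean of both orientations by p, at 0.22 ± 0.10 (adjusted p = 0.704).

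For the sets closest in kind, medians lay near that of the Mrp genes, with more calls. The orientation coefficient had a median of 0.048 over 62 cytosolic ribosomal protein genes, with 8 called, and of 0.064 over 78 genes of the respiratory chain and ATP synthase, with 13 called, where 2.61% of all genes were called. At an unadjusted p under 0.05 there were 40.3% of the cytosolic and 38.5% of the respiratory genes, beside 27% of the Mrp genes. All calls in both sets were above 0, while among the Mrp genes Mrpl53 was called below 0. In the mean of both orientations none of these genes was called, with medians of -0.019 and 0.011. Differences between the sets were not tested. Among markers of cell types, 0 were called in the mean of both orientations, beside 0.0412% of all genes. In the orientation coefficient 1 of 11 myeloid markers was called, S100a9, above 0. None of the 10 pluripotency, 8 lymphoid and 11 fibroblast markers was called, beside 2.61% of all genes. In the mean, 10 of 11 myeloid markers were below 0, with 4 at an unadjusted p under 0.05 (36.4%, beside 7.02% of all genes). Lymphoid markers gave 2 of 8 (25%), both above 0, pluripotency markers 1 of 10 and fibroblast markers 0 of 11. At any p, 5 lymphoid markers were above 0 and 3 below. For pluripotency markers these counts were 6 and 4, and for fibroblast markers 8 and 3. In the orientation coefficient, 5 of 11 myeloid markers had an unadjusted p under 0.05 (45.5%, 4 above 0 and 1 below). So did 4 of 8 lymphoid markers (50%, 1 above 0 and 3 below), beside 19.5% of all genes. Pluripotency and fibroblast markers gave 1 each. The 10 pluripotency, 8 lymphoid, 11 fibroblast and 11 myeloid genes had medians of 0.060, 0.072, 0.048 and -0.10 in the mean. In the orientation coefficient the medians were -0.031, -0.11, 0.026 and 0.051. The part of these markers in the values of the Mrp genes was not tested.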

How the data were processed

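RNA of the treated and the untreated line was hybridised together on each of 15 cDNA arrays. The authors deposited log2 ratios of the 2 channels for 20205 probes; that the scale is log2 was read from the values, and no source used here gives the normalization, background correction or spot filter. Values above 10 in size (1999, 9 of them at Mrp probes), which equal log2 of 100000 plus an array constant, were set missing. Symbols came from the platform annotation, updated by identifier through RefSeq (13855 of 13891 probes with 1 symbol; 5 probes had several and 6309 none). Probes were averaged per gene and array.

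The 9720 genes with 4 or more values in each orientation entered limma 3.58.1 (lmFit, eBayes; R 4.3.3) with a mean and an orientation term, two-sided, Benjamini-Hochberg over all 9720 genes or 19863 probes, threshold 0.05. The fit was also run on simulated data with independent noise and shifts larger than most Mrp estimates. That run does not measure how often shifts of the sizes reported here would be found. The number of arrays limits the precision. A value counted as dim where, less the array constant, it lay within 0.0015 of log2 of 2 small integers (6 at most) divided.

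Members and lists were chosen with earlier results of these data known. Values by array were given for the 6 members with the smallest p for each quantity. Pathway genes were named by the 3 smallest p of each list.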

Additional observations from a re-analysis of the deposited data

Results flagged for a closer look

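The log2 ratio differed between arrays of opposite labelling, tested as a term of the limma fit, for 4 Mrp genes. The orientation coefficient (treated in Cy5 minus treated in Cy3, times 0.5) was 0.267 for Mrpl34, 0.219 for Mrpl47, 0.350 for Mrps9 and -0.707 for Mrpl53. Whether these differences come from the dyes, from swaps left unturned or from another difference between the sets of arrays was not tested. The design cannot tell these apart.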

How the results depend on the processing

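If the swaps were deposited unturned, the quantities trade places: the treatment estimate was called for 4 Mrp genes and 254 genes, with 17 Mrp genes at an unadjusted p under 0.05 and a median of 0.052, and the orientation coefficient for 0 and 4, with 1 and -0.0091. It was then 0.29 for Mrps24 and 0.21 for Mrpl55 (treatment), and -0.083 for Mrpl34, 0.088 for Mrpl53, -0.014 for Mrps9 and -0.029 for Mrpl47 (orientation). For the mean, all genes called were 4, but 8 with placeholders left in, 8 with the most measured probe, 11 with array weights and 0 without arrays 7, 8 and 15 or with either orientation alone. Mrp genes at an unadjusted p under 0.05 were 1, but 2 with centred arrays, quantile normalization or values on all 15 arrays, 3 with array weights or without arrays 7, 8 and 15, 13 with Cy5-labelled treated RNA alone (median 0.081, Mrps24 0.0022) and 8 in Cy3 alone. For the orientation coefficient, 7 Mrp genes and 685 genes were called with array weights, and 8 and 571 without arrays 7, 8 and 15. Leaving out 1 array gave 0 Mrp genes for the mean, with a median between -0.020 and 0.0030, 0 to 3 at an unadjusted p under 0.05 and 0 to 7 genes called (0 without array 10, 2 without 11, 7 without 6). For the orientation coefficient it gave 1 to 5 Mrp genes, 13 to 20 at an unadjusted p under 0.05, a median of 0.041 to 0.059 and 99 to 431 genes. Mrp calls were 2 without array 5, 6, 9, 10, 11 or 14, and 1 without array 12. The causes were not tested. No paired analysis was possible because the labels give 1 group with no numbers shared between groups. A block of arrays n and n+8, not based on the labels, changed no Mrp call.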
